A study of Rattus norvegicus with 14 samples.

Results

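The genes described here encode the routes by which calcium crosses the surface membrane of a muscle cell: the voltage-gated calcium channels that let it in and the exchanger and pumps that carry it out. They were 10 genes taken by name, Cacna1c, Cacna1d, Cacna1g, Cacna1h, Cacnb2, Cacnb3, Cacna2d1, Slc8a1, Atp2b1 and Atp2b4. All 10 were on the array, with 19 probe sets of 31042 tested, and they are 10 of the 14217 genes that could be named. Where a gene had several probe sets, the one with the highest mean over the 14 arrays stands for it.

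The samples were thoracic aortas of Sprague-Dawley rats. One group was labelled A-CRF, renal failure brought on with adenine (8 arrays), and the other Control (6 arrays), with 1 array per sample. Adenine is a purine whose breakdown product forms crystals in kidney tubules, and no other agent or allele is named in the labels. The sources used here give no dose, duration, age or sex. Nor do they say whether each array came from its own rat, so a p-value reflects the scatter among these arrays, part of which may be technical. The number of an array within its group is only a name. Each array measured tissue of several cell types, adipocyte markers included, so fewer cells of a type and less RNA per cell cannot be told apart.

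In arterial smooth muscle, depolarisation opens L-type channels, and the calcium that enters drives contraction. An L-type channel is built around a pore subunit (Cacna1c or Cacna1d), with a cytoplasmic beta subunit (Cacnb2, Cacnb3) and an extracellular alpha2delta subunit (Cacna2d1) that help bring the pore to the membrane and tune its gating. T-type pores (Cacna1g, Cacna1h) open at more negative voltages and work without those partners. Calcium leaves through the sodium-calcium exchanger (Slc8a1), which uses the sodium gradient, and through the plasma membrane calcium pumps (Atp2b1, Atp2b4), which use ATP and are activated by calmodulin. The series title names a decreased rate of aortic relaxation in renal failure, and lowering cell calcium is a step of relaxation.

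None of the 10 genes passed in A-CRF against Control (limma on all probe sets, Benjamini-Hochberg adjusted p under 0.05), and none of their 19 probe sets did. Over all 31042 probe sets 2.05% were called, 1.26% higher and 0.789% lower, so 0 of 10 is near that background. For none of the 10 were the groups without overlap, against 1.38% of all probe sets. At an unadjusted p under 0.05 there were 2 of the 10, Cacna2d1 and Atp2b4, against 14.4% of all probe sets. The median log2 change of the 10 was 0.00066, beside -0.0020 over all probe sets, with 6 above 0 and 4 below. The 95% intervals of the 10 changes all lay between -0.21 and 0.32 log2 units.

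All values are log2 probe set signals. The lowest signal in the table was 4.82, and the means of 59.0% of all probe sets lay less than 1 log2 unit above it. By that measure 5 of the 10 genes stood clear: Cacna2d1 (mean 8.16 over 14 arrays), Atp2b1 (7.54), Slc8a1 (7.46), Cacna1c (6.08) and Cacnb2 (5.86). The other 5 were near the lowest value: Cacna1d (5.79), Atp2b4 (5.56), Cacnb3 (5.52), Cacna1h (5.49) and Cacna1g (5.43). Cacnb2 lay just above that bound of 5.82 and Cacna1d just below it. Probe sets differ in how well they bind, so the order of these signals is not an order of transcript number. Relative abundance of subunits is therefore given further on as differences within an array and how they shift between groups.

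**Figure D1:**
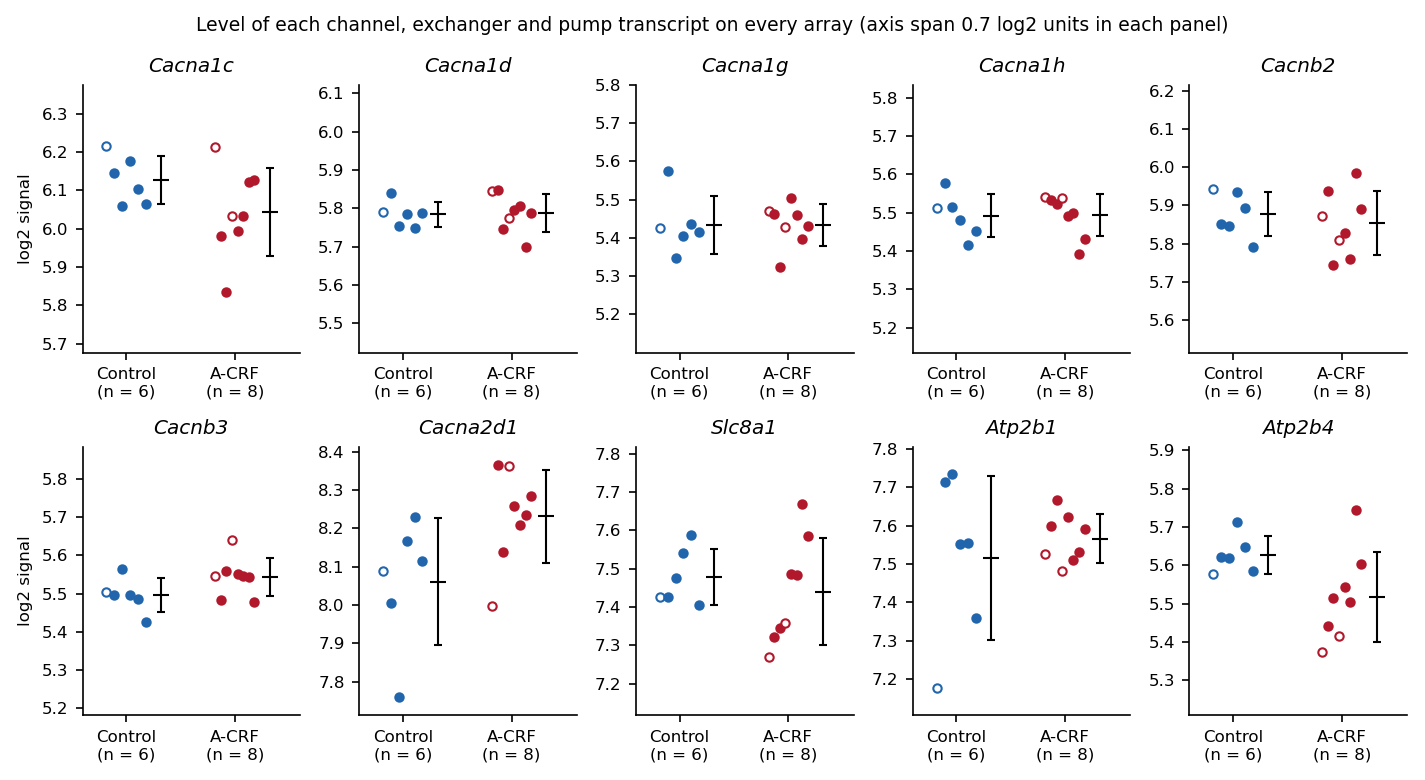
Log2 signal (vertical axis) of each of the 10 genes on every array, Control in blue (n = 6) and A-CRF in red (n = 8), with the mean and SD beside the points; open points are the 3 arrays with a GAPDH 3' minus 5' difference above 1 log2 unit. The groups overlap in all 10 panels; Cacna2d1 sits highest in A-CRF relative to Control (0.17) and Atp2b4 lowest (-0.11).

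Among the pore subunits, Cacna1c, the main L-type pore of arterial smooth muscle, was at 6.06, 6.12 and 6.22 in Control (lowest, median and highest of 6) and at 5.84, 6.03 and 6.21 in A-CRF (of 8). Of the A-CRF arrays 5 were below the lowest Control array and none was above the highest. Control averaged 6.13 ± 0.06 (SD, n = 6) and A-CRF 6.04 ± 0.11 (SD, n = 8), a change of -0.085 ± 0.049 (SE) with a 95% interval of -0.19 to 0.02 that did not pass (limma unadjusted p = 0.107). In percent that interval ran from -12.4% to 1.46%. A-CRF 1 and Control 1 had the highest Cacna1c signal of their groups, 6.21 and 6.22. On these arrays and A-CRF 4 the GAPDH 3' probe set exceeded the 5' one by 1.58 to 1.90 log2 units, as it does in degraded or shortened RNA, while the other 11 arrays had 0.37 to 0.55. Without these 3 arrays the change of Cacna1c was -0.094 (limma adjusted p = 0.391). With the mean of the smooth muscle markers as a covariate it was -0.027 (limma adjusted p = 0.850).

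Cacna1d, the other L-type pore, was at 5.75 to 5.84 in Control and 5.70 to 5.85 in A-CRF, and its change was 0.0037 ± 0.024 (SE). The T-type pores did not separate the groups either. Cacna1g was at 5.35 to 5.58 in Control and 5.32 to 5.50 in A-CRF, with a change of 0.00063 ± 0.034, and Cacna1h at 5.42 to 5.58 and 5.39 to 5.54, with 0.00070 ± 0.029. For these 3 genes the interval of the change stayed within 0.073 log2 units of 0, at signals near the lowest value, where little can be seen. Their signs turned with the processing, at adjusted p of 0.715 or more in each setting that gave a value.

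Of the auxiliary subunits, Cacna2d1, the alpha2delta subunit to which gabapentin binds, showed the largest change of the 10. Its signal was 7.76, 8.10 and 8.23 in Control (lowest, median, highest) and 7.997, 8.25 and 8.37 in A-CRF. Thus 7 of 8 A-CRF arrays were above the Control median and 5 above the highest Control array, and A-CRF 1 was the exception at 7.997. A-CRF averaged 8.23 ± 0.12 (SD, n = 8) and Control 8.06 ± 0.17 (SD, n = 6), a ratio of 1.13 with a 95% interval of 1.01 to 1.25. This change of 0.17 ± 0.07 (SE) did not pass (limma adjusted p = 0.272, unadjusted p = 0.0314, exact permutation p = 0.0393). It kept its sign in all 27 alternative fits, with values from 0.11 (without Control 3) to 0.20 (without A-CRF 1 or Control 5), and passed in none of them.

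The beta subunits had small changes of opposite sign. Cacnb2, a beta subunit of the heart and vessel L-type channel, was at 5.79, 5.87 and 5.94 in Control (lowest, median, highest) and 5.75, 5.85 and 5.99 in A-CRF, a change of -0.023 ± 0.038 (SE, limma adjusted p = 0.889). Cacnb3, a further beta subunit of smooth muscle channels, was at 5.43, 5.50 and 5.56 in Control and 5.48, 5.55 and 5.64 in A-CRF. Its change was 0.049 ± 0.026 (limma adjusted p = 0.432), with 6 of 8 A-CRF arrays above the Control median. For neither gene did the groups separate.

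**Figure D2:**
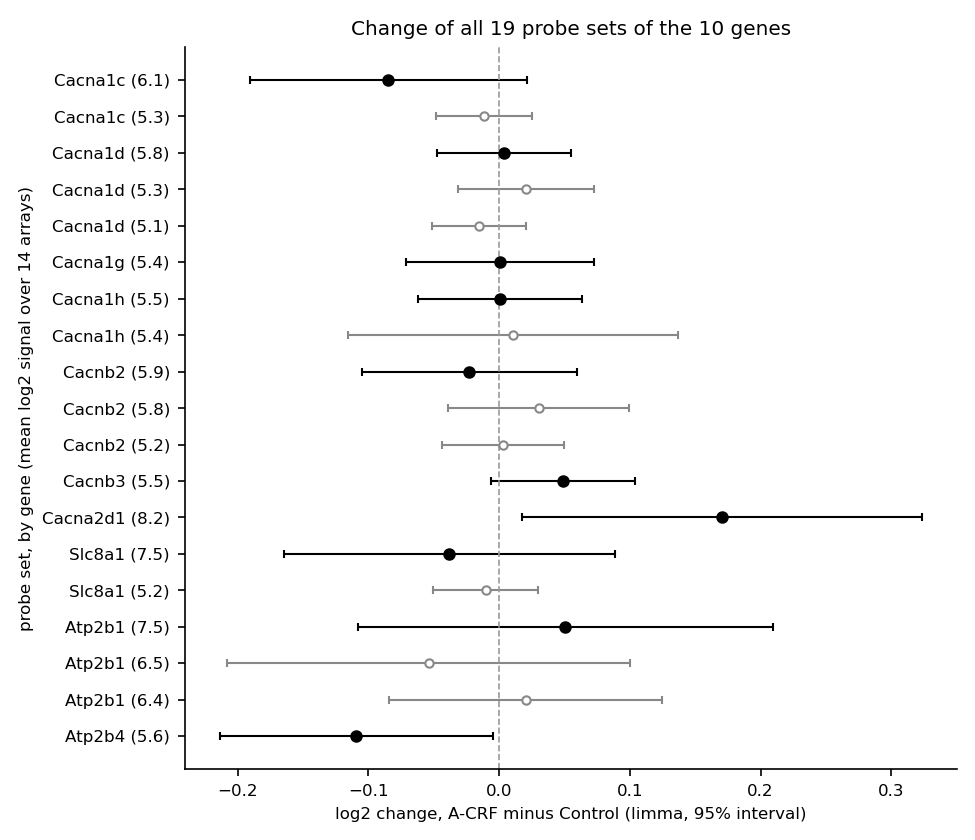
Change in A-CRF against Control (horizontal axis, log2 units, with the 95% interval from limma) of all 19 probe sets, named by gene with the mean signal in brackets; filled points are the probe sets that stand for a gene. The intervals of Cacna2d1 and Atp2b4 leave out 0 before adjustment, and none of the 19 passed after it.

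The extrusion genes are shown with the 250 bases before the start of transcription in RefSeq (build GRCr8), since they are the exchanger and both pumps on which the extrusion results turn. GC boxes (GGGCGG, either strand) are in capitals. The starts are those of the RefSeq table and were not measured here. That of Slc8a1 may belong to an internal exon, so its window may not be the promoter used in aorta.
Slc8a1, chr6:19023309-19023558, plus strand: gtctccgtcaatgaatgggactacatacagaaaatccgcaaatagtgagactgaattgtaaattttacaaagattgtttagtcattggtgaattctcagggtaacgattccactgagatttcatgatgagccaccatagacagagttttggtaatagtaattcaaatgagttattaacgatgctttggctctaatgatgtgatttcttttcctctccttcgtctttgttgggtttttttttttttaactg
Atp2b4, chr13:47758877-47759126, minus strand: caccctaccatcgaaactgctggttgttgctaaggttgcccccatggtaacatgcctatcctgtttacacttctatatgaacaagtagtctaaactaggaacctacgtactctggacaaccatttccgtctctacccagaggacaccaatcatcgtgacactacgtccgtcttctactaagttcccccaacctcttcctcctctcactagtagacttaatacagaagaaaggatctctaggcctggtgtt
Atp2b1, chr7:35622211-35622460, plus strand: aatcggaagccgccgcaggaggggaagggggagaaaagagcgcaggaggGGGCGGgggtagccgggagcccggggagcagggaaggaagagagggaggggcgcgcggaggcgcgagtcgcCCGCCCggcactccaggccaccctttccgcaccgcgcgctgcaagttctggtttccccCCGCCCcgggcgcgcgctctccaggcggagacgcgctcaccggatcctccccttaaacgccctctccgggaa

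The windows of Slc8a1 and Atp2b4 had GC contents of 35.2% and 46.4% and held 0 GC boxes, and that of Atp2b1 had 72.8% and 3 GC boxes. The window of Cacna1c also held 0 GC boxes (GC content 54.4%). Over the arrays Cacna1c had r = 0.245 with Slc8a1 and 0.284 with Atp2b4, neither of which passed (adjusted permutation p = 0.802 and 0.770). Any link between GC boxes and correlation over the arrays was not tested. The table gave 11 windows for 8 of the 10 genes, and 7 of the 11, from 5 genes (Atp2b1, Cacna1d, Cacna2d1, Cacnb2 and Cacnb3), held a GC box, against 30.5% of all 33469 windows of that length. Those 7 include 3 of Cacna2d1, 2 of which overlap, so they are not independent. None of the 11 held an E-box (CACGTG, 5.59% of all windows), a D-box (TTATGNAA, 3.28%), a cAMP response element (TGACGTCA, 1.59%), a TATA box (TATAAA, 12.9%) or a CArG box (501 of all windows), on either strand.

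Slc8a1, the sodium-calcium exchanger, was at 7.41, 7.45 and 7.59 in Control (lowest, median, highest) and 7.27, 7.42 and 7.67 in A-CRF. The A-CRF arrays spread to both sides, with 4 below the lowest Control array and 1 above the highest, and the change was -0.038 ± 0.059 (SE, limma adjusted p = 0.877). Its SD was 0.14 in A-CRF (n = 8) and 0.073 in Control (n = 6). The values in A-CRF were 7.27, 7.32, 7.34 and 7.36 on arrays 1 to 4, 7.49 and 7.48 on arrays 5 and 6, and 7.67 and 7.58 on arrays 7 and 8. On A-CRF 6, 7 and 8 the mean of the clock output genes Dbp, Per3, Nr1d2 and Tef was also high, at 7.44 to 7.50, against 6.31 to 6.62 on the other A-CRF arrays and 6.55 to 7.34 in Control. A-CRF 5 had the lowest clock output mean, 6.31, with Slc8a1 at 7.49. With that mean of the clock output genes as a covariate the change of Slc8a1 was -0.00069 ± 0.043 (SE, limma adjusted p = 0.998). The part of the clock in the Slc8a1 signal was not tested.

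Atp2b1, the plasma membrane calcium pump found in most tissues, was at 7.18, 7.55 and 7.74 in Control and 7.48, 7.56 and 7.67 in A-CRF, so the A-CRF arrays all fell inside the Control range. The change was 0.051 ± 0.074 (SE, limma adjusted p = 0.866). Here the Control group was the wider one, with an SD of 0.21 (n = 6) against 0.063 (n = 8). Its lowest array, Control 1 at 7.18, is one of those with a high GAPDH difference, and without it the change was -0.017 (limma adjusted p = 0.953).

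Atp2b4, a pump known to bind nitric oxide synthase in muscle cells, was at 5.58, 5.62 and 5.71 in Control (lowest, median, highest) and 5.37, 5.51 and 5.75 in A-CRF. It was below the lowest Control array on 6 of 8 A-CRF arrays and above the highest on 1, A-CRF 7. A-CRF averaged 5.52 ± 0.12 (SD, n = 8) and Control 5.63 ± 0.05 (SD, n = 6), a change of -0.11 ± 0.05 (SE) that did not pass (limma adjusted p = 0.314, unadjusted p = 0.0414, exact permutation p = 0.0569). The lowest adjusted p in any alternative fit was 0.0588, without A-CRF 7, with a change of -0.14. Its signal is dim, less than 1 log2 unit above the table's minimum.

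The balance between subunits was read as the difference of their log2 signals within an array, for 12 pairs, and group means of that difference were compared by a two-sided exact permutation test over all 3003 splits of the arrays. Pairs with Cacnb3, Cacna1d, Cacna1g, Cacna1h or Atp2b4 include a gene near the lowest value, where little can be seen of a change in balance. None of the 12 pairs passed after Benjamini-Hochberg adjustment over the pairs, and 2 had an unadjusted p under 0.05. Cacna2d1 minus Cacna1c, alpha2delta against pore, was 1.70, 1.93 and 2.12 log2 units in Control (lowest, median, highest) and 1.78, 2.22 and 2.38 in A-CRF. It was above the highest Control array on 6 of 8 A-CRF arrays, all but A-CRF 1 at 1.78 and A-CRF 7 at 2.11. The group difference was 0.26 (exact permutation p = 0.0216, adjusted p = 0.260). Without A-CRF 1 it was 0.31 and passed (exact permutation p = 0.00117, adjusted p = 0.0140), and without the 3 arrays of high GAPDH difference it was 0.29 (adjusted p = 0.0519).

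Cacnb3 minus Cacna1c was -0.63 ± 0.08 in Control (SD, n = 6) and -0.50 ± 0.13 in A-CRF (SD, n = 8), a group difference of 0.13 (exact permutation p = 0.0436, adjusted p = 0.262), with 4 A-CRF arrays above the highest Control array. For Cacnb2 minus Cacna1c the difference was 0.062 (exact permutation p = 0.175). Its Control arrays spanned only -0.29 to -0.21, whereas the A-CRF arrays ran from -0.34 to -0.042. The pairs with Cacna1c as the second gene share its signal and are not independent of each other: all 8 had a positive difference, alongside the change of -0.085 in Cacna1c itself. T-type against L-type pore gave 0.086 for both Cacna1g and Cacna1h (exact permutation p = 0.119 and 0.201), and Cacna1h minus Cacna1g gave 0.000066. Cacna1g and Cacna1h themselves changed by 0.00063 and 0.00070, at dim signals. The value of 0.086 is thus almost wholly the change of Cacna1c with its sign reversed.

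Between the extrusion routes, Slc8a1 minus Atp2b1 was -0.04 ± 0.20 in Control (SD, n = 6) and -0.13 ± 0.16 in A-CRF (SD, n = 8), a difference of -0.089 (exact permutation p = 0.366). Atp2b4 minus Atp2b1 was -1.89 ± 0.20 and -2.05 ± 0.12, a difference of -0.16 (exact permutation p = 0.0842, adjusted p = 0.285), and 7 of 8 A-CRF arrays were below the Control median. Extrusion set against entry gave 0.047 for Slc8a1 minus Cacna1c and 0.14 for Atp2b1 minus Cacna1c (exact permutation p = 0.550 and 0.253). The pairs with Atp2b1 leaned on Control 1, its lowest array. Without it Slc8a1 minus Atp2b1 differed by -0.031, Atp2b4 minus Atp2b1 by -0.10 and Atp2b1 minus Cacna1c by 0.050. Without the 3 arrays of high GAPDH difference, Control 1 among them, these were -0.0096, -0.082 and 0.098.

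**Figure D3:**
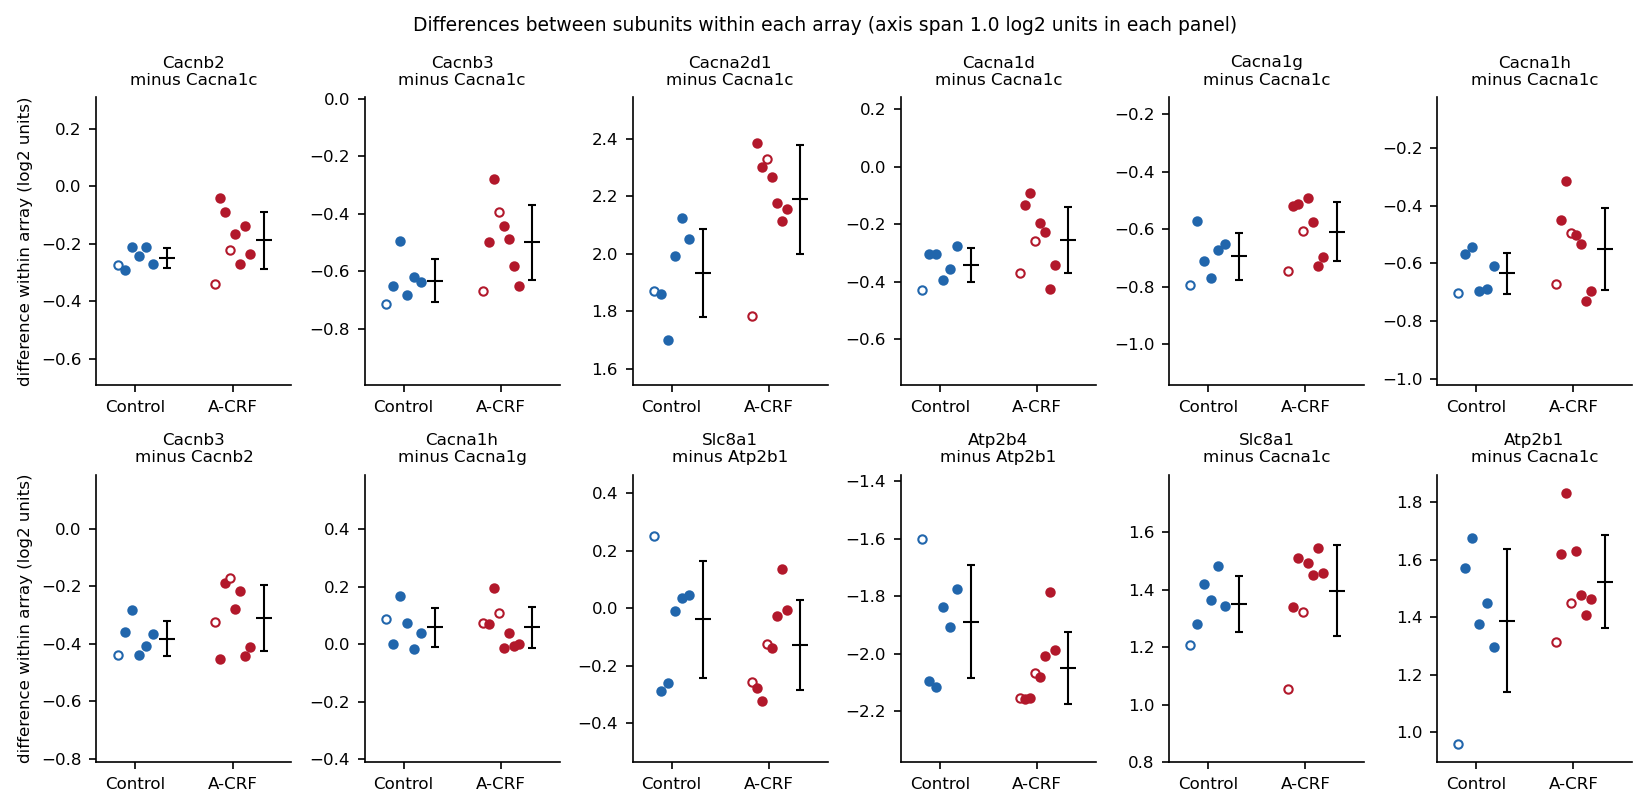
Difference in log2 signal between the genes of each of the 12 pairs within every array (vertical axis), Control in blue and A-CRF in red, with the mean and SD beside the points; open points are the 3 arrays with a high GAPDH difference. In the panel of Cacna2d1 minus Cacna1c 6 of 8 A-CRF arrays lie above all Control arrays and A-CRF 1 lies low at 1.78.

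The remaining 9 probe sets of the 10 genes gave no call. Of the 6 genes with several probe sets, 3 (Cacna1c, Cacna1h and Slc8a1) had changes of a single sign and 3 (Cacna1d, Cacnb2 and Atp2b1) of both. For Cacna1c the second probe set had a mean of 5.29 and a change of -0.012 ± 0.017 (SE), and for Slc8a1 5.18 and -0.010 ± 0.019, both near the lowest value. Atp2b1 had 3 probe sets above that range, at means of 7.54, 6.54 and 6.41, with changes of 0.051, -0.054 and 0.020. One probe set that the platform annotation gives to Cacna1h carries an accession that the RefSeq gene table gives to Cacna1g. It does not stand for either gene here, since its mean of 5.37 is below those of both, and its change was 0.011 ± 0.059 (SE).

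Across the 14 arrays 2 of the 45 pairs of genes passed by Pearson r after adjustment over the pairs, and 3 by Spearman rho (permutation test with 100000 resamples). The share of all gene pairs on the array that pass this test was not computed, so these counts have no background beside them. Slc8a1 and Atp2b4, exchanger and pump, varied together from array to array, with r = 0.851 (permutation p = 0.00015, adjusted p = 0.00675) and Spearman rho = 0.776 (adjusted permutation p = 0.0247). The relation held within A-CRF (r = 0.934, n = 8) and had the same sign within Control (r = 0.749, n = 6). Without A-CRF 1 and A-CRF 7, the arrays farthest from the median of Slc8a1, r was 0.724. Both genes were lowest on A-CRF 1 (7.27 and 5.37) and highest on A-CRF 7 (7.67 and 5.75). Of the pair, Atp2b4 is dim, with a mean of 5.56, less than 1 log2 unit above the lowest value. On 3 arrays of near-equal Slc8a1 signal, Control 3 was at 7.48 and 5.62, while A-CRF 5 was at 7.49 and 5.54 and A-CRF 6 at 7.48 and 5.50.

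Cacna1h and Slc8a1 ran in opposite directions, with r = -0.808 (permutation p = 0.00032, adjusted p = 0.00720) and rho = -0.829 (adjusted permutation p = 0.0211). Within A-CRF r was -0.960 (n = 8), within Control -0.583 (n = 6), and without A-CRF 7 and Control 5 it was -0.644. Cacna1h itself varied over only 0.19 log2 units, between 5.39 and 5.58, a dim signal less than 1 log2 unit above the lowest value. With the 3 arrays of high GAPDH difference left out neither pair passed (r = 0.787 and -0.781, adjusted permutation p = 0.121 for both). When each gene was the mean of its probe sets, the first pair passed and the second did not (r = -0.552). For Cacna1h that mean includes the probe set that the RefSeq gene table gives to Cacna1g, and its part in the lower r was not tested. The pair that passed by rank alone was Cacna1d and Cacna1g, an L-type and a T-type pore, with rho = 0.789 (adjusted permutation p = 0.0247) and r = 0.694 (permutation p = 0.00656, adjusted p = 0.0984). Its r was 0.792 without A-CRF 2 and A-CRF 7, 0.676 within A-CRF (n = 8) and 0.839 within Control (n = 6), at dim signals for both genes. No pair of a pore and its partner passed, the closest being Cacna1c and Cacnb2 (r = 0.612, rho = 0.565, permutation p = 0.0189, adjusted p = 0.121), for which r was 0.359 without A-CRF 3 and Control 1.

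**Figure D4:**
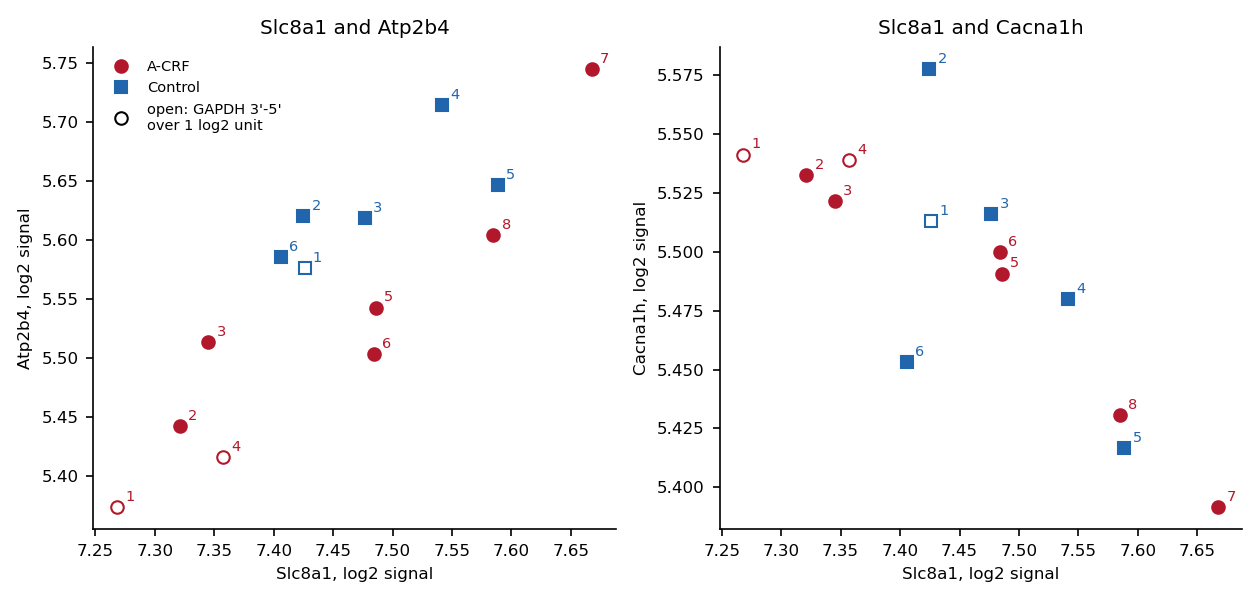
Log2 signal of Atp2b4 (left) and Cacna1h (right) against that of Slc8a1, with 1 numbered point per array, A-CRF as red circles and Control as blue squares; open points have a high GAPDH difference. Atp2b4 follows Slc8a1 over the 14 arrays (r = 0.851) and Cacna1h runs against it (r = -0.808).

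The genes whose pattern over the 14 arrays was most like each of the 5 clearer genes were picked by Pearson r from 9317 candidates, so a high r is built into the choice and no test applies. For Slc8a1 they were Fam8a1 (r = 0.915, rho = 0.921) and Plekha8 (r = 0.903), with 0.841 and 0.831 without A-CRF 1 and A-CRF 7. For Cacna1c they were Tacc2 (r = 0.897) and Pitpnm2 (r = 0.882), with 0.740 and 0.774 without A-CRF 3 and Control 1. For Cacna2d1 they were Hdhd2 (r = 0.909) and Copb2 (r = 0.894), which themselves changed by 0.15 and 0.17 log2 units and did not pass (limma adjusted p = 0.0521 and 0.0943). For Cacnb2 they were Drap1 (r = 0.888) and Gmds (r = 0.877), and for Atp2b1 Hnrnpu (r = 0.876) and Etnk1 (r = 0.860).

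The other genes of the pathway were taken from 3 lists. Of 17 measured further voltage-gated channel subunits, among them the neuronal pores and the gamma subunits, 0 were higher and 0 lower. Over all probe sets 2.05% were called, so this is near the background. The median log2 change of the 17 was 0.0026, beside -0.0020 over all probe sets. The largest changes were -0.047 ± 0.016 (SE) for Cacna1s, the skeletal muscle L-type pore, and -0.031 ± 0.035 for Cacna1f, the retinal one. Both had Control means, 5.27 and 5.53, near the lowest value, as did 15 of the 17. At an unadjusted p under 0.05 there was 1 of the 17, against 14.4% of all probe sets. It was Cacna1s (exact permutation p = 0.002), which was below the Control median on all 8 A-CRF arrays and did not pass (limma adjusted p = 0.157). Of 5 skeletal muscle markers 1, Ckm, was lower (-0.41, limma adjusted p = 0.0226), beside 0.789% of all probe sets. At an unadjusted p under 0.05 there were 3 of these markers, against 14.4% of all probe sets, and they did not share a direction. Ckm and Tnnc2 (-0.080) were lower in A-CRF, and Acta1 (0.43) was higher. The mean of these markers was 6.53 to 6.92 in A-CRF and 6.72 to 6.92 in Control, and their part in the value of Cacna1s was not tested.

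Of 9 measured further extrusion carriers 0 passed in either direction, beside 2.05% of all probe sets called. Their median log2 change was -0.0087, beside -0.0020 over all probe sets. At an unadjusted p under 0.05 there were 2 of the 9, against 14.4% of all probe sets. The largest changes belonged to potassium-dependent sodium-calcium exchangers. Slc24a4 was at 5.23 to 5.42 in Control and 5.30 to 5.63 in A-CRF, a change of 0.14 ± 0.05 (SE, limma adjusted p = 0.207), with 6 of 8 A-CRF arrays above the highest Control array. When probe sets that can match several transcripts were left out, another probe set stood for it and had a change of -0.0087. Slc24a3, the only carrier of this list clearly above the lowest value in Control (7.18), had a change of -0.081 ± 0.096.

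Of 18 measured partners and regulators 1 was lower and 0 higher, beside 2.05% of all probe sets called. Nedd4l, a ubiquitin ligase that marks membrane channels for removal, fell by 0.21 ± 0.05 log2 units (SE, limma adjusted p = 0.0402). It was at 5.87, 5.97 and 6.09 in Control (lowest, median, highest) and 5.61, 5.73 and 5.98 in A-CRF, and 7 of 8 A-CRF arrays were below all Control arrays. Its signal is dim: the mean over 14 arrays was 5.85, just above the bound of 5.82, and the A-CRF mean was 5.76. The call was lost without A-CRF 2, 3, 4, 5 or 6 or without Control 2, 3, 4, 5 or 6 (highest adjusted p = 0.0999). It was also lost without the 3 arrays of high GAPDH difference (adjusted p = 0.0550) and with the adipocyte or the smooth muscle markers as a covariate (0.0605 and 0.0530). The size of the change was kept in these fits, at -0.23, -0.21 and -0.24, and ran from -0.24 to -0.19 without single arrays. At an unadjusted p under 0.05 there were 5 of the 18, against 14.4% of all probe sets. Besides Nedd4l these were Nptn, Stac, Rrad and Rem1, which did not pass and are named after their values were seen. Nptn was lower, with a change of -0.11 ± 0.05 (SE, limma adjusted p = 0.302), and Stac, Rrad and Rem1 were higher. Stac, an adaptor that binds L-type channels, had a change of 0.28 ± 0.08 (SE, limma adjusted p = 0.0764), with Control at 6.18 ± 0.16 (SD, n = 6) and A-CRF at 6.45 ± 0.14 (SD, n = 8). Rrad and Rem1 encode small GTPases that bind beta subunits and inhibit L-type current. They had changes of 0.47 ± 0.17 and 0.21 ± 0.08 (limma adjusted p = 0.185 and 0.201), with 7 and 8 of 8 A-CRF arrays above the Control median. The other measured members of that family were Gem, with a change of 0.020 ± 0.124 (limma adjusted p = 0.978) and Rem2, with -0.024 ± 0.021 (0.708).

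**Figure D5:**
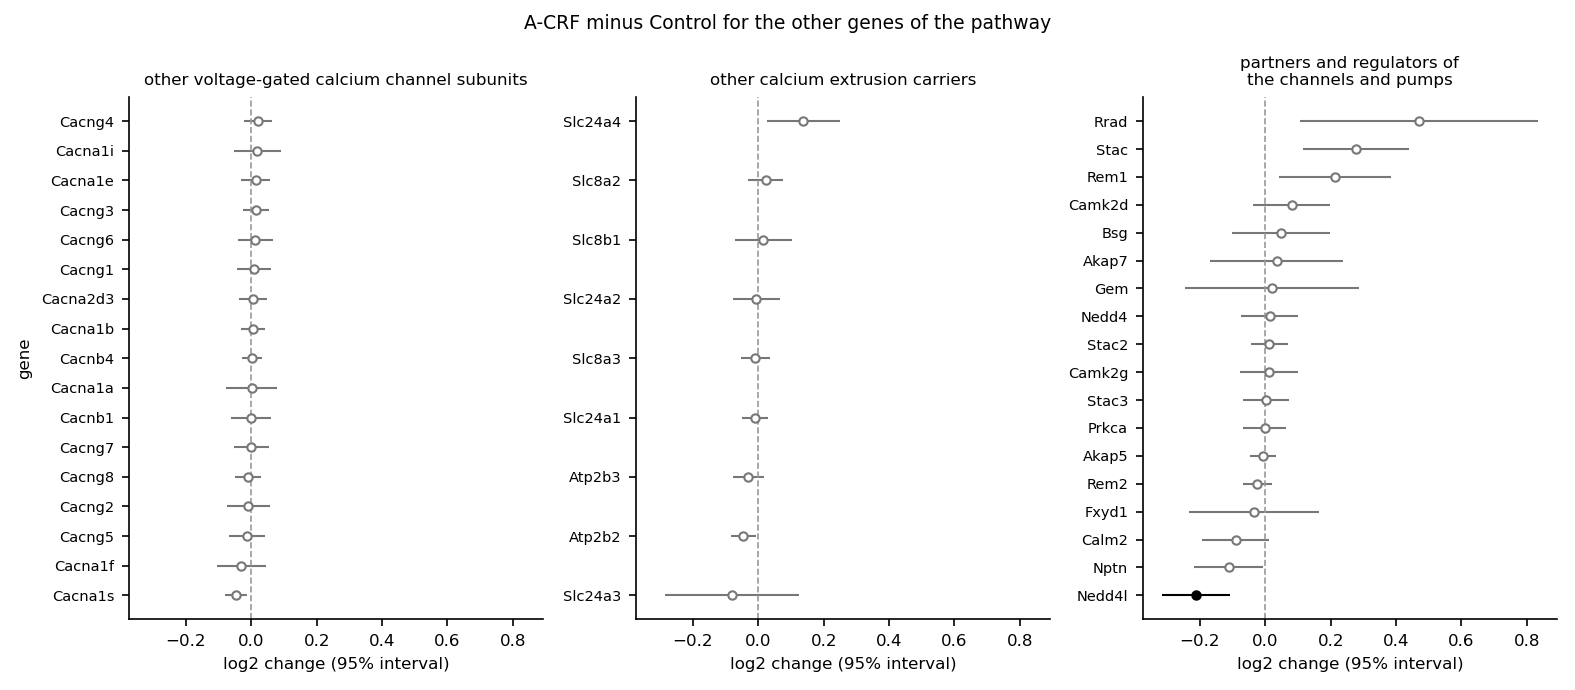
Change in A-CRF against Control (horizontal axis, log2 units, with the 95% interval from limma) for the measured genes of 3 lists, 17 further channel subunits, 9 further extrusion carriers and 18 partners and regulators; the filled point passed. Nedd4l is the filled point, at -0.21, and channel subunits cluster within 0.047 of 0.

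The label of the tissue was checked against markers. All 10 smooth muscle markers had Control means more than 1 log2 unit above the lowest value, as did 6 of 7 endothelial, 7 of 8 adipocyte, 3 of 5 skeletal muscle, 1 of 5 cardiac muscle and 1 of 6 nerve and Schwann cell markers. The noradrenergic nerve markers Th and Dbh were near the lowest value, at 5.35 and 5.55 in Control. The mean of the smooth muscle markers was 9.45 to 9.86 in A-CRF and 9.67 to 10.23 in Control. Of the 10, 1 passed as lower and 0 as higher, against 0.789% lower and 1.26% higher over all probe sets. Without regard to the threshold, 9 had a change below 0 and 1 above, with a median of -0.20. At an unadjusted p under 0.05 there were 3 of the 10, against 14.4% of all probe sets. Of 8 macrophage markers 6 were higher, against 1.26% of all probe sets. Their mean was 7.55 to 7.996 in A-CRF and 7.11 to 7.30 in Control, without overlap. Of all single probe sets 1.38% were without overlap. Adipocyte markers, at 6.49 to 8.16 and 7.27 to 8.37, had 0 of 8 past the threshold, beside 2.05% of all probe sets. With the smooth muscle or the adipocyte markers as a covariate 0 of the 10 channel and extrusion genes passed, and the part of the macrophage markers was not tested.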

How the data were processed

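Expression was measured on 1-colour arrays of rat thoracic aorta, 8 A-CRF and 6 Control. The deposited log2 values are 1 summary per probe set and array. The submitters' processing notes name PLIER, and per the labels' protocols RNA was primed with oligo-dT and labelled with biotin. The sources used here give no background correction, normalization, offset or scan date, and the log base was inferred from the range of values (4.82 to 12.64). Of 31099 probe sets 57 controls were left out. Symbols came from the platform annotation, for probe sets with 1 symbol (20826; 436 had several and 9780 none).

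Groups were compared with limma 3.58.1 in R 4.3.3 (lmFit, eBayes, two-sided, all probe sets), a procedure tested on simulated data. In the simulation noise was drawn independently for each probe set, without effects shared within an array. How many arrays there were limits the precision. In no pair of arrays did any probe set have an equal value, and r between arrays was 0.970 to 0.997.

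Genes named were the 10 members, list genes past the threshold (at most 6 a list, or the 2 largest changes where none passed), and the 2 genes most like each clearer member. Members and lists were chosen with earlier results of these data known. Alternatives were other scalings, an offset of 16, dropping probe sets below the 40th percentile, other variance models, array weights, other probe set rules, covariates and leaving out arrays. The same alternatives for the 3 lists were added after the data were seen.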

Additional observations from a re-analysis of the deposited data

Results flagged for a closer look

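Within a group, 4 values stood far from the rest, out of 54 groups of values examined for the 10 genes, the named list genes and the 12 pairs, and chance marks about 1 in 20 such groups. Cacna2d1 minus Cacna1c was 1.78 log2 units on A-CRF 1, against 2.11 to 2.38 on the other A-CRF arrays. Slc8a1 minus Cacna1c was 1.05 on the same array, against 1.32 to 1.54. A-CRF 1 also had the highest GAPDH 3' minus 5' difference, 1.90, and its part in these values was not tested. Atp2b4 minus Atp2b1 was -1.79 on A-CRF 7, against -2.16 to -1.99 on the other A-CRF arrays. Cacna1f, the retinal L-type pore, was at 5.67 on Control 2, against 5.47 to 5.54 on the other Control arrays.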

How the results depend on the processing

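None of the 10 genes passed in any of the 27 alternative fits, and the lists of further channel subunits and carriers also held 0 calls in each. All probe sets called numbered 636, and 1457 with array weights, 1041 with the GAPDH difference as a covariate, 355 with the smooth muscle covariate and 307 to 979 when single arrays were left out (979 without A-CRF 1). The list of partners and regulators held 1 call, and 3 with array weights, 0 without the 3 arrays of high GAPDH difference, 0 with the adipocyte covariate and 0 to 2 without single arrays (2 without A-CRF 1). Of the 12 pairs 0 to 1 passed without single arrays. Pairs correlated by Pearson r numbered 2, and 0 without the 3 arrays, 1 with the mean of probe sets, 2 after quantile normalization and 3 with deviations from the group means, which added Cacna1h and Atp2b4. The cause was not tested in any of these.

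Changes near 0 turned sign. With quantile normalization Cacna1g was -0.00019, Cacna1h -0.00070 and Cacna1h minus Cacna1g -0.00051. With the GAPDH covariate Cacna1g was -0.000071 and Cacna1h -0.0023. Without the 3 arrays Cacna1d was -0.0030, Cacna1g -0.0061, Cacna1h -0.011 and Cacna1h minus Cacna1g -0.0047. With the adipocyte covariate Cacna1g was -0.0050 and Cacna1h -0.0056. With the clock covariate Cacna1d was -0.0025, Cacna1g -0.0018 and Cacna1h -0.012. With the smooth muscle covariate Cacnb2 was 0.010, Atp2b1 -0.038 and Slc24a3 0.000050. With the mean of probe sets Cacnb2 was 0.0035. Without probe sets of several transcripts Cacna1d was -0.016 and Slc24a4 -0.0087. Leaving out single arrays gave -0.0047 to 0.016 for Cacna1d, -0.017 to 0.029 for Cacna1g, -0.015 to 0.018 for Cacna1h, -0.017 to 0.095 for Atp2b1 and -0.020 to 0.022 for Cacna1h minus Cacna1g. No paired analysis was possible because the groups share no replicate numbers in the labels.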

Other observations

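Signals of the 10 genes were set against the mean of the smooth muscle markers and of the adipocyte markers over the 14 arrays, 20 relations chosen after the data were seen. None passed after adjustment over the 20. The closest was Cacna1c, the L-type pore, with the smooth muscle markers (r = 0.637, permutation p = 0.0204, adjusted p = 0.408; rho = 0.473, permutation p = 0.0910). It fell to r = 0.185 without A-CRF 3 and Control 1, so it rests on those arrays, and it was 0.520 within A-CRF (n = 8) and 0.800 within Control (n = 6). Cacna2d1 had r = -0.440 with the adipocyte markers (permutation p = 0.115, adjusted p = 0.527, rho = -0.481) and -0.0933 without A-CRF 2 and A-CRF 4. Its r was -0.750 within A-CRF (n = 8) and 0.0967 within Control (n = 6).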
